A study of Mus musculus with 4 samples.

Results

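The GABA-A receptor subunit genes examined were 7 of the 28146 gene names on the array: the alpha subunits Gabra2, Gabra3, Gabra4 and Gabra5, the beta subunits Gabrb1 and Gabrb2, and the gamma subunit Gabrg1. They were taken by name, with every probe that carried the name, which gave 16 of 41174 probes. The selection rule uses no measured value, but the family was chosen with earlier results of these data known. RNA of whole fetal brain from C57BL/6J mice was hybridised on 4 Agilent arrays of 60-base probes, with the treated and the control RNA of a comparison on the same array in different dyes. In food deprivation (FD) the dams went without food overnight on gestation day 17, and in food restriction (FR) they received 50% of the chow that controls ate from gestation day 10 to day 17, with caesarean section on day 18. For FD the day of section is not named. Control dams ate freely.

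Each group was a single pool of RNA from 5 fetuses. The labels do not say whether FD and FR used the same control pool. Skeletal muscle markers had a mean log2 level of 10.08 in the FD control RNA and 8.37 in the FR control RNA. The control RNA of the comparisons thus differed in these markers. The treated pool was labelled with Cy5 on array 1 of a comparison and with Cy3 on array 2, so both arrays hold the same pair of pools and count as 1 replicate. No test or p-value was therefore possible, and the spread between arrays given below is technical. Values are log2(treated/control), and after each mean the ± sign gives the distance of either array from it, with n = 1 pair of pools. A probe was taken as measured if both dyes were well above background on both arrays, and as lower or higher when it changed at least 1.5-fold (0.58 on the log2 scale) in one direction on both arrays.

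GABA-A receptors are chloride channels assembled from several subunits and opened by the transmitter GABA. The GABA binding site lies where an alpha and a beta subunit meet, and the gamma subunit shapes benzodiazepine sensitivity and placement at synapses. Which alpha subunit is present sets much of the kinetics and the location of the receptor. In immature neurons GABA is commonly depolarising, and receptor subunits switch as the brain matures. Gabrg1, Gabra2, Gabra4 and Gabrb1 are neighbours on mouse chromosome 5.

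The probe that a gene name stands for matters here, because probes of the same gene gave different values. The start of each probe on which the results turn is shown as its first 30 bases, 5′ to 3′, with the position of the whole probe on build mm9 as the array files give it. Exon and untranslated regions are not given in the sources used here.
Gabrb1 A_51_P368757, chr5:72528086-72528145 (+): tcgcttgttttttaaccccacagattccca
Gabra2 A_51_P417507, chr5:71352793-71352852 (-): acaggcagaaaacatcccgtgccaaaagag
Gabra2 A_52_P446146, chr5:71350832-71350891 (-): aaccttcctcacgaaaatcaaaagtaatcc
Gabra2 A_52_P336171, chr5:71350022-71350081 (-): taatgacattatgataagttagacgtccca
Gabrg1 A_51_P396883, chr5:71143181-71143240 (-): cttgctcattgttaaaggtgttagggagtt
Gabra5 A_51_P151316, chr7:64744503-64744562 (-): cgaatcacgcaggtgcgaacagacatctat
Gabra5 A_52_P143037, chr7:64663486-64663545 (-): ctgtggacatttaagtccagtacgaattgc
The 3 Gabra2 probes do not overlap, with starts 810, 1961 and 2771 bases apart. Both Gabra5 probes lie 81017 bases apart. No whole probe of the family shared a run longer than 11 bases with a probe of another member. GC content of the 16 probes ran from 20% to 55%, beside a median of 40% over all 41174 probes.

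In FR, Gabrb1 RNA was 1.59-fold lower than in the control pool on its only probe, and no other subunit probe met the rule for a change. Of the 12 subunit probes measured in FR, 1 was lower and 0 were higher (8.33% called), where 1.05% of the 25987 measured probes were called (0.423% lower and 0.623% higher). The share among the subunits rests on this 1 probe. In FD, 13 subunit probes were measured and 0 were called, where 0.194% of 25779 probes were called.

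With the called Gabrb1 probe included, negative values were more common than positive ones among the subunit probes. In FR, 7 of the 12 probes were negative on both arrays (58.3%), 1 was positive on both and 4 had opposite signs, while 27.6%, 28.1% and 44.3% of all measured probes were. The median of the 12 probes was -0.16, with a range from -0.67 to 0.18, and the median over all probes was 0.00. In FD, 7 of 13 probes were negative on both arrays (53.8%), 2 were positive on both and 4 had opposite signs, against 25.4%, 24.1% and 50.5% of all probes. The FD median was -0.08, with a range from -0.45 to 0.32. For scale, the distance of an array from the mean had an SD of 0.123 over all probes in FD and 0.126 in FR. Probes of 1 gene share a transcript and the 7 genes share their pools, so these shares describe the probes and are no test. With only the brightest probe of each gene, 3 of 7 genes were negative and 2 positive on both FD arrays. In FR, 4 of the 7 were negative and 1 positive on both arrays.

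**Figure D1:**
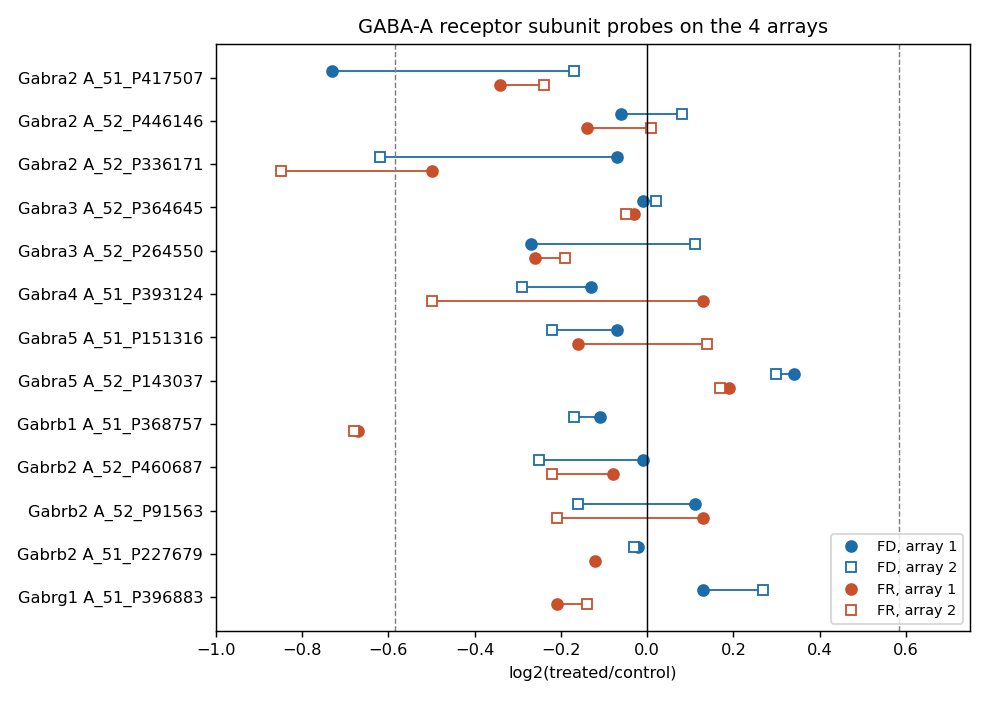
log2(treated/control) of the 13 subunit probes measured in at least 1 comparison, with filled circles for array 1, open squares for array 2, blue for FD, orange for FR and lines joining both arrays of a probe. The dashed lines mark 1.5-fold, and only both FR arrays of Gabrb1 lie together beyond the line on the left.

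Gabra2 encodes the alpha-2 subunit, a major alpha subunit of the immature forebrain that adult neurons carry at the axon initial segment. On probe A_52_P336171 the FR arrays gave -0.50 and -0.85, a mean of -0.67 ± 0.18 or 1.59-fold lower, and array 1 fell short of the 1.5-fold line. That mean was as low as the mean of Gabrb1, and 0.373% of all measured probes had an FR mean at or below it. The probe's FD arrays gave -0.07 and -0.62, a mean of -0.34 ± 0.27. Both comparisons were thus negative, with the lower value on array 2 each time.

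The other Gabra2 probes did not repeat this size. On A_51_P417507 the FR arrays gave -0.34 and -0.24, a mean of -0.29 ± 0.05, and the FD arrays gave -0.73 and -0.17, a mean of -0.45 ± 0.28. On A_52_P446146 the FR arrays gave -0.14 and 0.01, a mean of -0.06 ± 0.08, and the FD arrays gave -0.06 and 0.08, a mean of 0.01 ± 0.07. The FR means of the 3 probes therefore spanned 0.61 and the FD means spanned 0.46, wider than the technical SD. Taken over the 3 probes, Gabra2 was at -0.34 in FR and -0.26 in FD. The RefSeq sequence identifier behind A_51_P417507 differs from the clone identifiers behind both others, and which transcripts each probe reports was not tested.

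Gabra3 encodes the alpha-3 subunit, which is prominent before birth. Its brighter measured probe, A_52_P264550 at chrX:69679157-69679216 (-), gave -0.26 and -0.19 in FR, a mean of -0.22 ± 0.03. The same probe gave -0.27 and 0.11 in FD, so the FD arrays disagreed in sign. A_52_P364645 at chrX:69746547-69746606 (-) gave -0.03 and -0.05 in FR and -0.01 and 0.02 in FD, all within the technical spread. The Gabra3 probe A_52_P907953 was not well above background on any array.

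Gabra4 encodes the alpha-4 subunit, known from receptors outside the synapse in the thalamus and hippocampus. Its probe A_51_P393124 at chr5:71962623-71962682 (-) gave -0.13 and -0.29 in FD, a mean of -0.21 ± 0.08. In FR it gave 0.13 and -0.50, so the mean of -0.18 ± 0.32 rests on array 2. The FR arrays of Gabra4 differed more than those of any other measured subunit probe.

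Gabra5 encodes the alpha-5 subunit, which carries tonic inhibition in the hippocampus. On each FD array its probes differed in sign. Their means spanned 0.47 in FD and 0.19 in FR, beside 0.46 and 0.61 for Gabra2. A_52_P143037 was positive on all 4 arrays, with 0.34 and 0.30 in FD (mean 0.32 ± 0.02) and 0.19 and 0.17 in FR (mean 0.18 ± 0.01). In FD 98.7% of measured probes had a mean at or below that value, yet at 1.25-fold it stayed short of a call. A_51_P151316 gave -0.07 and -0.22 in FD, a mean of -0.15 ± 0.08, and -0.16 and 0.14 in FR, a mean of -0.01 ± 0.15. Over both probes Gabra5 stood at 0.08 in FD and 0.08 in FR. The direction for Gabra5 in FD thus depended on the probe.

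Gabrb1 encodes the beta-1 subunit, a beta form with a restricted distribution in the adult brain. Its single probe gave -0.67 and -0.68 on the FR arrays, a mean of -0.67 ± 0.01, and 0.381% of all measured probes had an FR mean at or below it. The FD arrays gave -0.11 and -0.17, a mean of -0.14 ± 0.03 or 1.1-fold lower. FD minus FR, taken between arrays of the same dye orientation, was 0.55 and 0.51, a mean of 0.53, which did not reach 1.5-fold on both. Across the family 0 of 12 probes were called in that difference (0.295% of 23387 probes were), with 6 positive in both orientations and 0 negative in both, where 29.5% of all probes were positive in both, 31% negative in both and 39.6% of opposite sign.

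The channel levels gave Gabrb1 a value in each pool. After scaling between arrays, its log2 level was 9.37 and 9.38 in the FR pool and 10.04 and 10.06 in the FR control pool. In the FD pool it was 9.78 and 9.80, and in the FD control pool 9.89 and 9.98. The FR pool was lowest, and the remaining pools lay between 9.78 and 10.06 without overlap with it. The FD pool was higher than the FR pool by 0.41, and the FD control pool was lower than the FR control pool by 0.12 (-0.12), where the SD of such a difference over all probes was 0.186 for treated and 0.163 for control pools. The same difference between treated pools ran from -0.05 (Gabra2 A_52_P446146) to 0.43 (Gabrg1) over the subunit probes measured in both comparisons. It was 0.38 for Gabra4, which like Gabrg1 was not called. In whole brain, fewer cells of a type and less RNA per cell cannot be told apart.

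The call for Gabrb1 depended on the background model and on the normalization. Array 2 of FR had 42 spots with a local background over 2 times that of its median spot, left out here before the background model was fitted. With these spots kept in the model, the FR arrays gave -0.67 and -0.18 and Gabrb1 was not called, and 14 probes of the whole array were (0.0539%). With each array centred on its median in place of loess they gave 0.02 and -1.48, again not a call (0.2% of probes were called). The Gabrb1 mean was then -0.73, and the medians over all probes were 0.24 on FR array 1 and -0.29 on FR array 2. With no background correction, plain subtraction, the smaller offset, the scanner's ratio and the deposited value table, Gabrb1 stayed lower on both arrays by more than 1.5-fold. These settings called 1.18%, 3.22%, 1.97%, 3.51% and 3.51% of all probes in FR. The scanner's ratio and the value table gave Gabrb1 the same values (-0.72 and -0.77) and are not independent settings.

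Gabrb2 encodes the beta-2 subunit, the most abundant beta form of the adult brain. Its measured probes had means from -0.15 to -0.02. A_52_P91563 at chr11:42444018-42444077 (+) gave 0.11 and -0.16 in FD and 0.13 and -0.21 in FR, with opposite signs each time. A_52_P460687 at chr11:42442194-42442253 (+) gave -0.01 and -0.25 in FD and -0.08 and -0.22 in FR. A_51_P227679 at chr11:42445782-42445841 (+) gave -0.02 and -0.03 in FD and -0.12 on FR array 1, and its spot on FR array 2 carried an outlier flag and was left out. A_52_P260709 was not well above background on any array.

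Gabrg1 encodes the gamma-1 subunit, which has a narrow distribution in the brain and gives receptors of low benzodiazepine affinity. It was the only subunit that had one sign on both FD arrays and the other sign on both FR arrays. Probe A_51_P396883 gave 0.13 and 0.27 in FD, a mean of 0.20 ± 0.07, and -0.21 and -0.14 in FR, a mean of -0.17 ± 0.04. FD minus FR was 0.35 and 0.41, a mean of 0.38. This probe was printed 10 times on each array. The spots had a mean of 0.13 ± 0.14 (SD, 9 spots) and 0.27 ± 0.16 (SD, 10 spots) on the FD arrays. They had -0.21 ± 0.16 (SD, 9 spots) and -0.14 ± 0.16 (SD, 7 spots) on the FR arrays. Spots are technical repeats of 1 hybridisation and add no biological replicate. Among all 23387 probes measured in both comparisons, 1475 (6.31%) had opposite signs of this kind.

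The log2 level of Gabrg1 was 10.78 and 10.89 in the FD pool, 10.65 and 10.62 in its control, 10.39 and 10.42 in the FR pool and 10.61 and 10.55 in its control. Both control pools lay between the treated pools, with the FD pool above and the FR pool below. The other Gabrg1 probe, A_52_P547896 at chr5:71205492-71205551 (-), was not well above background on any array.

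**Figure D2:**
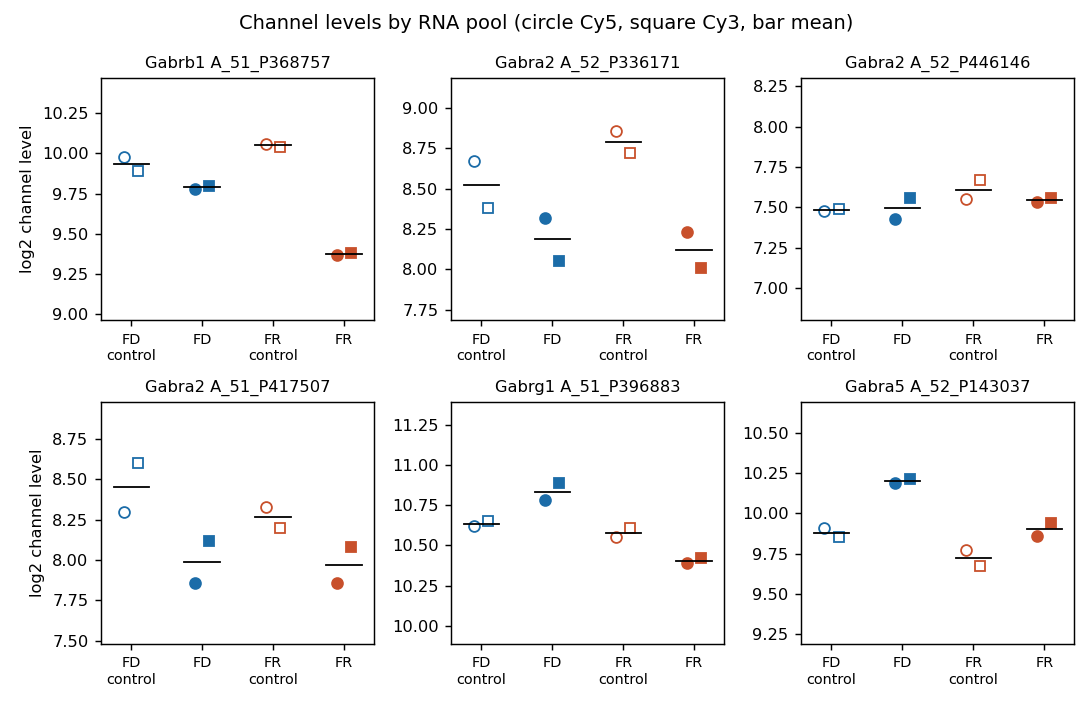
Channel levels (log2, scaled between arrays) of 6 subunit probes in the FD control, FD, FR control and FR pools, with circles for Cy5, squares for Cy3, open symbols for controls and a bar for the mean of both arrays. Each panel spans the same range of 1.5 log2 units but starts at its own level; the FR pool of Gabrb1 sits at 9.37 and 9.38, and the Gabrg1 controls lie between the FD and FR pools.

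The levels gave a different picture for Gabra4. Its pools averaged 9.51 in FD and 9.73 in the FD control, and 9.13 in FR and 9.31 in the FR control. The FD pool exceeded the FR pool by 0.38 and the FD control exceeded the FR control by 0.41, so both pools of FD were higher by a like amount. For Gabra2 probe A_52_P336171 the treated pools were nearly level, at 8.18 in FD and 8.12 in FR, and the controls were at 8.52 and 8.79. The FR control was the highest of the 4 pools on that probe, and the FD control was lower than it by 0.27 (-0.27). For Gabra5 probe A_52_P143037 the FD pool was highest at 10.20, and the other pools were at 9.88, 9.90 and 9.72.

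**Figure D3:**
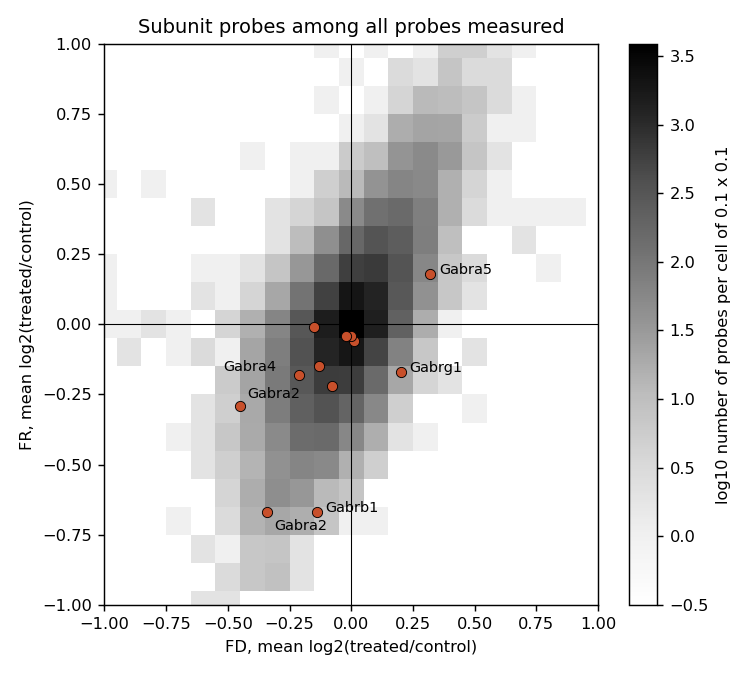
FD mean against FR mean, both log2(treated/control), of the 12 subunit probes measured in both comparisons (orange) over the number of all measured probes per cell (grey, log10). Gabrb1 lies at -0.14 in FD and -0.67 in FR, and Gabrg1 lies at 0.20 and -0.17, with opposite signs.

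Gabrg1, Gabra2, Gabra4 and Gabrb1 lie within 1385 kb of chromosome 5 between their outermost probes. All 6 measured probes of these 4 genes, 3 of which are Gabra2 probes, had a negative FR mean. Of the 6, 4 were negative on both FR arrays, and their median was -0.24. In FD their median was -0.18, with 4 negative on both arrays. Gabra5 on chromosome 7 had an FR median of 0.08 over 2 probes, Gabrb2 on chromosome 11 had -0.09 over 2 probes, and Gabra3 on chromosome X had -0.13 over 2 probes. The FR mean was negative for 2 of 2 Gabrb2 probes, 2 of 2 Gabra3 probes and 1 of 2 Gabra5 probes. A negative FR mean was thus not particular to the chromosome 5 genes. Other genes between and within 500 kb of the 4 genes had 10 measured probes of 6 genes, with an FR median of 0.01 and 0 called. Their range ran from -0.44 to 0.39, and its ends lay beside Gabrb1. C030009O12Rik, chosen after its values were seen, gave -0.49 and -0.40 at 1397 kb from the Gabrg1 probe, where Gabrb1 lies at 1385 kb. A Commd8 probe at 1405 kb, likewise chosen after its values were seen, gave 0.42 and 0.37, while the other Commd8 probe gave 0.01 and 0.05.

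**Figure D4:**
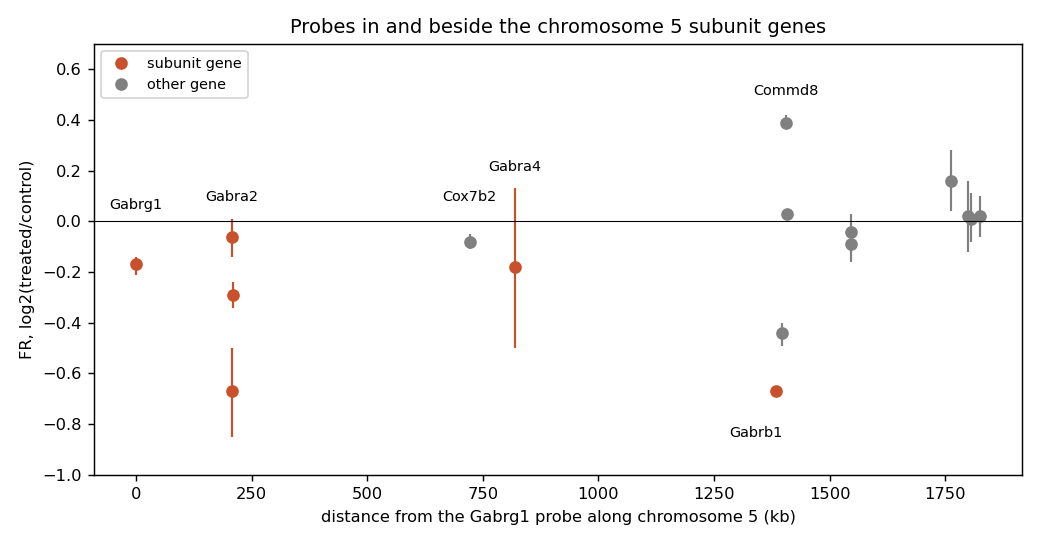
FR log2(treated/control) of measured probes against distance (kb) from the Gabrg1 probe along chromosome 5, with points for the mean and bars for the range of both arrays; orange marks subunit genes and grey marks other genes. The 6 subunit probes have means from -0.67 to -0.06, and the other 10 probes lie from -0.44 to 0.39.

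The upstream regions of the subunit genes were read from the RefSeq promoter table (build GRCm38.p6), where all 7 genes matched with 11 start sites in total. The 250 bases before the start are shown for Gabra2 and for the downstream start of Gabrb1, the genes with the lowest FR values. Capitals mark a GC box (GGGCGG on either strand).
Gabra2, chr5:71095850-71096099 (-): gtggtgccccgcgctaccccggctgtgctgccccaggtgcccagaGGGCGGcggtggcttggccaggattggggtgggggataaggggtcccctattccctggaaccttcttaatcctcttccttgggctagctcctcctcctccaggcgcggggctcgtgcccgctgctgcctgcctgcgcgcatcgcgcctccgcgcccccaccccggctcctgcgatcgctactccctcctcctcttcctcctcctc
Gabrb1, chr5:71699682-71699931 (+): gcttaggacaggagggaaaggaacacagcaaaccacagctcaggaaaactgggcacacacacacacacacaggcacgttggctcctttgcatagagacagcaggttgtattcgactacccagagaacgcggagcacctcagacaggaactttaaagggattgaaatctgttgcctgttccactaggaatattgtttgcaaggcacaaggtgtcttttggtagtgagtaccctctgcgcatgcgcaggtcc
The upstream start of Gabrb1 and the start of Gabra4 face each other, and the annotated genes overlap by 388 bases, so the window before that start lies inside Gabra4. Across the 11 windows, GGGCGG was found in 3, as against 32.7% of 32851 windows of that length. TATAAA was found in 3, as against 12.4%, and 2 of those 3 are overlapping Gabra3 windows that hold the same match. TGACGT was in 0 of 11 (6.47% of all windows) and CACGTG in 0 of 11 (6.02%). Both strands were searched for every motif, and a match here is a description of letters.

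Among other genes of GABA signalling, listed together with the related glycine receptor subunits, 35 of 48 were measured, and 0 were called in FD or in FR, where 0.233% and 1.09% of the 16750 measured genes were. With the brightest measured probe standing for each gene, the list's median was -0.01 in FD and -0.05 in FR, beside 0.00 in both over all genes. In FR, 11 of the 35 were negative on both arrays and 8 positive, beside 28.2% and 28.7% of all genes. In FD 6 were negative and 6 positive on both, beside 23.6% and 25.8%. The members themselves, with their brightest probes, had medians of -0.08 in FD and -0.18 in FR.

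Of the other GABA-A and rho subunits, 6 of 12 were measured. Their FR median was -0.21, with 4 negative on both arrays, 0 positive on both and a range from -0.37 to 0.02, and their FD median was 0.01. Genes of GABA synthesis, vesicle loading, uptake and breakdown had an FR median of 0.03 over 8 genes. Receptor clustering and trafficking genes had an FR median of 0.03 over 15 genes. The GABA-B subunits had an FR median of -0.02, from means of -0.11 and 0.07. The chloride transporters, which set the direction of GABA currents, had a median of 0.00, from means of opposite sign (-0.16 and 0.15). The lowest FR median of these groups was -0.33, over the 2 measured of 5 glycine receptor subunits, 1 of them negative on both arrays, and their FD median was 0.04.

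The largest values of the list in FR came from Glrb, Ubqln1 and Gabarapl2. Glrb, the beta subunit of the glycine receptor, gave -0.34 and -0.77, a mean of -0.55. Ubqln1, a ubiquitin-like protein that binds GABA-A subunits, gave -0.38 and -0.41, a mean of -0.40. Gabarapl2, a relative of the GABA-A receptor-associated protein, gave 0.50 and 0.29, a mean of 0.39. In FD, Gabarapl2 gave 0.41 and 0.16 (mean 0.28) and the transporter Slc6a12 gave 0.31 and 0.15 (mean 0.23). None met the rule for a change.

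Markers of the tissue were measured beside these values. Neuronal markers were well above background, with 7 of 8 measured, and had medians of -0.02 in FD and -0.10 in FR. GABAergic neuron markers (9 of 11 measured) had medians of 0.01 in FD and 0.07 in FR, and glutamatergic neuron markers (5 of 7) had 0.00 and -0.04. Astrocyte and radial glia markers (7 of 8) had 0.09 in FD and -0.24 in FR, with 4 negative and 3 positive on both FR arrays and a range from -0.50 to 0.44. In FD they ranged from -0.15 to 0.79, and 1 was called higher (Aldoc, 0.79 and 0.78). Their mean log2 level was 9.26 in FD, 9.11 in the FD control, 8.84 in FR and 8.95 in the FR control. Oligodendrocyte lineage markers (7 of 8) had 0.09 in FD and -0.23 in FR, with 5 negative and 0 positive on both FR arrays. Their levels were 9.42 in FD, 9.35 in the FD control, 9.18 in FR and 9.40 in the FR control. The medians of the astrocyte and oligodendrocyte lists thus had the signs of Gabrg1 in both comparisons. So did those of microglia markers (0.02 and -0.02) and of the other GABA-A and rho subunits (0.01 and -0.21). The glycine receptor subunits had the same signs (0.04 and -0.33). The part of these lists in the subunit values was not tested. Skeletal muscle markers were lower in FD on all 7 probes (median -2.13), with a mean level of 10.08 in the FD control pool and from 7.99 to 8.37 in the other pools. Pituitary markers (4 of 5) had an FD median of -0.67, with 2 called lower, Gh at -1.52 and Pomc at -1.05, and a mean level of 8.25 in the FD control pool and from 7.46 to 7.52 in the others. Neural progenitor markers (3 of 6) had -0.23 in FD and 0.06 in FR, and endothelial markers (3 of 4) had -0.19 and -0.01. Neutrophil markers (3 of 5) had -0.07 in FD and 0.58 in FR, with 1 called higher in FR (S100a9, 0.84 and 1.26). The 1 measured erythroid marker had -0.15 in FD and 0.38 in FR. Microglia (5 of 5) had 0.02 and -0.02, and choroid plexus markers (2 of 3) had -0.02 and 0.01. FD medians were thus negative for muscle, pituitary, progenitor, endothelial, erythroid, neutrophil, neuronal and choroid plexus markers, as for the subunit probes (-0.08). They were positive for GABAergic neuron, astrocyte and radial glia, oligodendrocyte lineage and microglia markers, and 0.00 for glutamatergic neuron markers. The part of any of these lists in the subunit values was not tested either.

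The genes most like a subunit in their 4 array values were found among 19206 measured probes that carry a gene symbol, by Euclidean distance over the 4 log2 ratios. For Gabra2 probe A_52_P336171, the subunit probe with the largest FR value, the nearest were Nfya (0.148), Sh3d19 (0.17), Mns1 (0.21), Wdr12 (0.211) and Fam136a (0.212). Nfya, a subunit of a CCAAT-binding transcription factor, gave -0.03 and -0.56 in FD and -0.37 and -0.80 in FR, again lower on array 2. For Gabrb1, added after its values were seen, the nearest were Sfswap (0.0799), Mrps7 (0.0946), Dleu7 (0.107), Med20 (0.113) and Gpt2 (0.118). Sfswap, a splicing regulator, gave -0.14 and -0.11 in FD and -0.64 and -0.64 in FR. With 4 values from 1 pair of pools each, likeness here describes these arrays.

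**Figure D5:**
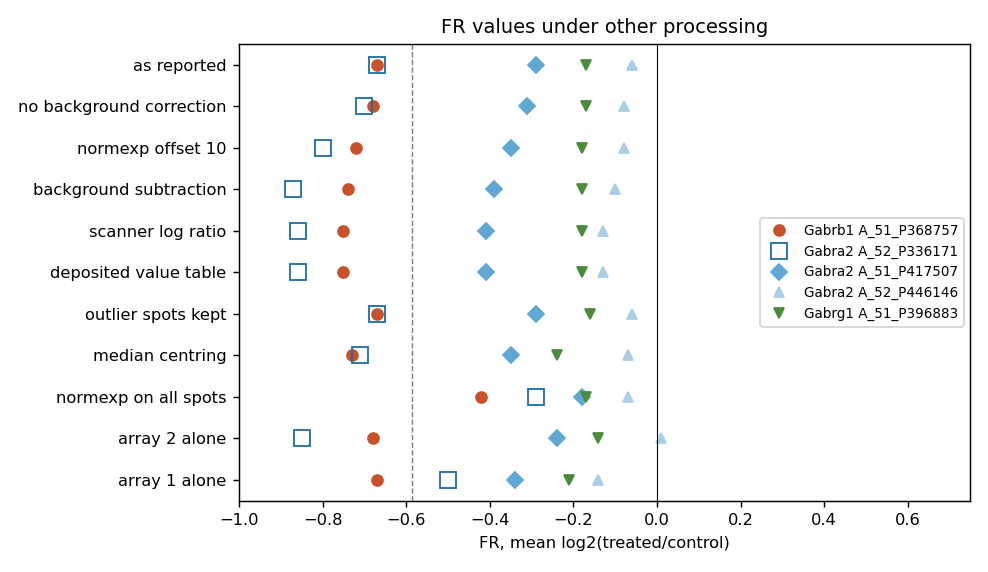
FR mean log2(treated/control) of 5 chromosome 5 subunit probes under the reported processing and 10 other settings, with the dashed line at 1.5-fold lower. Gabrb1 (circles) ranges from -0.75 to -0.42 and Gabra2 probe A_52_P336171 (open squares) from -0.87 to -0.29, with the values nearest 0 under normexp on all spots, while Gabrg1 (downward triangles) ranges from -0.24 to -0.14.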

How the data were processed

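RNA of pooled fetal brains was measured on 4 two-colour arrays of 1 slide and 1 scan. The deposited scanner files, made with Agilent Feature Extraction 9.5.3.1, give uncorrected intensities per the file headers: a mean for every spot and a median for its surrounding background. Their log10 ratios (red/green) were corrected for background and dye by the scanner software, per the file headers, and spot flags are 0 or 1. No unit is stated for the table of values. On spots well above background its columns matched the scanner ratio, turned to treated over control, at r = 1 and slope 1, so the authors' values are log2 ratios, with column medians of -0.03, 0.03, -0.03 and 0.01. The authors' handling of dim spots is not known.

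Spots whose local background exceeded 2 times that of the median spot of the array (45 besides control spots) were left out, an exclusion that came from earlier work on these values. Intensities then went through normexp with an offset of 50 and were loess-normalised within arrays, with control spots at weight 0, in limma 3.58.1 under R 4.3.3. Spots with an outlier flag were dropped, swapped arrays were turned, and spots of a probe were averaged. A probe was measured when at least 0.5 of its spots were well above background. Levels of single channels were scaled between arrays with Aquantile. Between 71.4% and 85.3% of probes were well above background per channel. The main limit is 1 pool of RNA per condition, and the arrays of a comparison give technical spread only. Of 41174 probes, 32817 were named through the RefSeq table (GRCm38.p6, names only), and coordinates are mm9.

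No test was made, since each condition is 1 pool, and the calling code was tested on simulated data. The members, lists and rules were chosen with earlier results of these data known. Named were all 7 members, of the other GABA genes those called and the 3 of largest size in each comparison (1 gene is not reported here), the 5 genes most like the member probe of largest FR size, and markers. Alternatives changed the background correction, the normalization, the signal source, the filters, the fold limit and the arrays used.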

Additional observations from a re-analysis of the deposited data

Results flagged for a closer look

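Gabrg1 probe A_51_P396883 differed between the comparisons: it was positive on both FD arrays (0.13 and 0.27) and negative on both FR arrays (-0.21 and -0.14), and FD minus FR was 0.38. The difference was not tested, since each condition is 1 pool. Of the 23387 probes measured in both comparisons, 6.31% had such opposite signs. No group of 4 or more samples exists here, so no sample was compared with others of its group.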

How the results depend on the processing

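No paired analysis was possible because each condition is 1 pool of RNA and no test was made; a block for the slide could not be fitted, since all arrays lie on 1 slide. Of the values of single probes and genes recomputed under the alternatives, single arrays included and values that an alternative could not change left out, 334 moved by less than the technical SD and 44 by more. Gabrb1 in FR had a negative mean in 10 of 10.

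Subunit probes called in FR numbered 1 as reported. They were 2 with background subtraction, 2 with offset 10, 2 with the scanner log ratio, 2 with the deposited value table and 2 at 1.3-fold, the added probe being Gabra2 A_52_P336171, and 0 with normexp on all spots, 0 with median centring and 0 at 2-fold. From single FR arrays they were 1 to 2. In FD, where 0 were called, each single array gave 1 (Gabra2 A_51_P417507 on array 1 and A_52_P336171 on array 2), and FD against FR gave 1 (Gabrb1) with the scanner log ratio, 1 with the deposited value table and 1 at 1.3-fold.

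Over the whole array, FD had 50 called probes as reported, 178 with subtraction, 90 with offset 10, 26 with median centring, 178 with the scanner ratio and the value table alike, 185 at 1.3-fold, 15 at 2-fold and 119 to 252 from single arrays. FR had 272, then 836, 511, 52, 911, 938, 31 and 646 to 749 in the same order, and 14 with normexp on all spots. The share called moved with them, from 1.05% to 3.51% in FR with the scanner ratio, so 2 called members stand beside a higher background there. The split of higher to lower calls was 23 to 27 in FD and 162 to 110 in FR, against 4 to 22 and 44 to 8 with median centring, 10 to 4 in FR with normexp on all spots, and 1 to 14 and 26 to 5 at 2-fold. Median centring left array medians of 0.32 and -0.28 in FD and 0.24 and -0.29 in FR. The cause of these changes was not tested.

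Gabra4 in FR went from -0.18 to 0.02 with normexp on all spots. With the mean of its measured probes Gabra2 was at -0.34 in FR against -0.67 for its brightest probe, and Gabra5 at 0.08 in FD against 0.32.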
